A study of Mus musculus with 10 samples.

Results

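The BCL2 family decides whether a cell keeps its mitochondria intact or opens them and dies. It was described here in embryonic mouse limb buds from which the microRNA-processing enzyme Dicer had been removed. The genes were 10 listed symbols: the survival genes Bcl2, Bcl2l1 and Mcl1, the pore-forming effectors Bax and Bak1, and the BH3-only genes Bcl2l11, Bmf, Pmaip1, Bbc3 and Bid. All probe sets that the array annotation assigns to exactly 1 of these symbols were taken. This gave 30 probe sets of the 45101 in the table, and they stood for 9 of the 10 genes. Bax was not analysed here. Affymetrix arrays were hybridised with limb bud RNA, 5 labelled Dicer mutant and 5 labelled wild type, numbered 1 to 5 in each group. The embryos came from a cross in which 1 parent was homozygous for a floxed Dicer allele and the other carried a floxed allele together with prxcre. In such a cross every embryo, in either group, inherits a floxed allele from the homozygous parent. Which alleles the arrays labelled wild type carried, the embryonic stage, and whether an array holds 1 embryo or a pool are unstated in the labels. Any p-value here therefore reflects only how far these samples scatter, which may be technical. The prxcre driver acts in limb bud mesenchyme, and ectoderm, blood and vessel cells of the bud keep Dicer.

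In this family the balance is set by binding. BCL2, BCL-XL (from Bcl2l1) and MCL1 hold the effectors BAX and BAK and the BH3-only proteins, and the BH3-only proteins, each induced or released by its own kind of stress, release or activate the effectors, which then perforate the outer mitochondrial membrane. In the mouse limb this pathway removes the tissue between the digits, and mice without both Bax and Bak1 keep webs there. Several members are textbook microRNA targets. Bcl2l11, which encodes BIM, is repressed in mouse lymphocytes by the cluster that holds miR-17, miR-19b, miR-20a and miR-92a, and the related miR-106b and miR-25 share seeds with it. In mouse neurons miR-29b represses Bcl2l11, Bmf, Bbc3 and other BH3-only genes. In human leukaemia cells miR-15a and miR-16 repress BCL2, and in human cells miR-29b represses MCL1.

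The mature sequences of these microRNAs are shown because they are products of the enzyme removed in the mutants and are the best known repressors of the members described below. Capitals mark the seed, bases 2 to 8, and microRNAs with the same seed stand together. Mature microRNAs are not among the values analysed here.
mmu-miR-17-5p: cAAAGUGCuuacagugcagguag
mmu-miR-20a-5p: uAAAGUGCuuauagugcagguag
mmu-miR-106b-5p: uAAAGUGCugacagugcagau
mmu-miR-92a-3p: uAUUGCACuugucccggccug
mmu-miR-25-3p: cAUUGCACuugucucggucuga
mmu-miR-19b-3p: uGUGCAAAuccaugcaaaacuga
mmu-miR-15a-5p: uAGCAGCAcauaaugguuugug
mmu-miR-16-5p: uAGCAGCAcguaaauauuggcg
mmu-miR-29b-3p: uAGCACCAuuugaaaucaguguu
The sequences and positions are those of RefSeq on GRCm38.p6. The plus strand of chromosome 14 holds miR-17-5p at chr14:115043684-115043706, miR-20a-5p at chr14:115044183-115044205, a copy of miR-19b-3p at chr14:115044358-115044380 and a copy of miR-92a-3p at chr14:115044476-115044496. The minus strand of chromosome 5 holds miR-106b-5p at chr5:138165787-138165807 and miR-25-3p at chr5:138165332-138165353. On the minus strand of chromosome 14, miR-15a-5p lies at chr14:61632075-61632096.

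The arrays numbered 2 went against their labels at Dicer1. At probe set 1427941_at Dicer mutant 2 reached 360 and its 4 fellow mutant arrays 205 to 226, while wild type 2 reached 233 and its 4 fellow wild type arrays 372 to 706. The log2 fold change of Dicer1 there was -0.74 (SE 0.25, limma adjusted p = 1.00) in the 10 arrays, and at 1460571_at it was -0.36 (SE 0.15, limma adjusted p = 1.00). In the 8 remaining arrays the values were -1.08 and -0.57, which are a description only, since Dicer1 decided which arrays were left out. Whether these probe sets lie in the floxed part of the gene is unstated, so they check the labels only as far as the transcript is lost. Results are therefore given for the 10 arrays as labelled and for the 8 arrays left without number 2. That choice rests on the targeted gene and was made with results of these data known, so p-values of the 8 arrays are not corrected for it. Array medians lay between 145.8 and 152.8. The lowest was that of Dicer mutant 2, and those of the other arrays were 150.7 or more. All 12 limb mesenchyme markers, among them Prrx1, Twist1 and Msx1, were above the filter on dim probe sets (a geometric mean signal of 151.4, the median of all probe sets). In the 8 arrays limma called 0 of the 12, with 2 at an unadjusted p below 0.05, which 14.7% of 11601 genes had. The median log2 fold change of the 12 was -0.028. With the replicate number as a block 2 of the 12 were called, where 6.59% of genes were. These were Tbx4 and Pdgfra, both higher (0.58 and 0.20 on the log2 scale, limma adjusted p = 0.00705 and 0.0480). Others lay below 0 without a call, such as Tbx5 (-0.21) and Msx2 (-0.18). The filter kept 23 of the 30 family probe sets, at least 1 for each of the 9 genes. The other 7, with mean signals of 48.1 to 125, were 2 of Bcl2, 2 of Bcl2l1 and 1 each of Bcl2l11, Bak1 and Bid.

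Between the groups as labelled no family member passed the test. Limma called 0 of the 23 family probe sets in the 10 arrays, as it called 0.0% of all 22519, and 2 of the 23, against 632 of all 22519, had an unadjusted p below 0.05. None of the 23 had groups that did not overlap there, where 0.4% of all did. In the 8 arrays Bcl2l11 was higher in Dicer mutant limb buds at 3 of its 4 tested probe sets and Bmf at 1 of 3, and Bcl2 was lower at 2 of 3. There 6 of the 23 family probe sets were called at a Benjamini-Hochberg adjusted p below 0.05, 4 higher and 2 lower, where 1.68% of all tested probe sets were called, 0.928% higher and 0.75% lower. The 6 came from 3 genes, and probe sets of 1 gene are not independent. With each gene represented by its brightest tested probe set, 3 of the 9 genes were called (2 higher, 1 lower), against 2.15% of 11601 genes (1.14% higher, 1.02% lower). With the replicate block it was again 3, against 6.59% of genes. The median log2 fold change of the 9 genes was -0.015 and that of all genes -0.013. None of the 6 calls held in numbers 4 and 5 alone (2 arrays a group, adjusted p of 0.34 to 0.42), where limma called 0 of all probe sets and 2132 had an unadjusted p below 0.05. In a bulk sample, fewer cells of a type and less RNA per cell cannot be told apart.

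**Figure D1:**
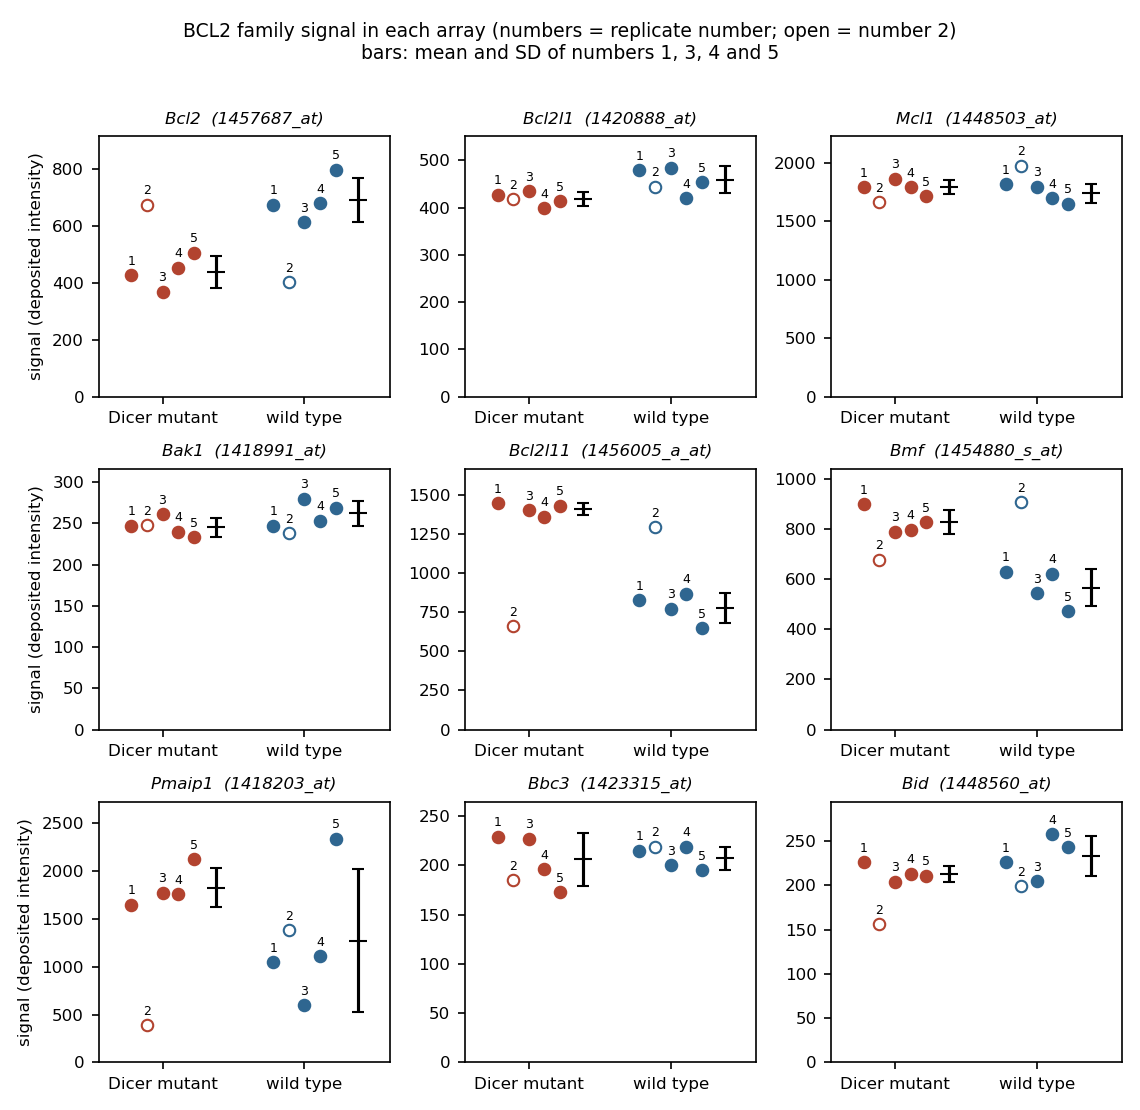
Deposited signal (linear intensity, axes from 0) of the brightest probe set of each of the 9 genes in every array, with Dicer mutant arrays left and wild type arrays right, replicate numbers beside the points and open points for number 2. Bars give the mean and SD of numbers 1, 3, 4 and 5; the filled points separate for Bcl2, Bcl2l11 and Bmf, and each open point of these 3 genes lies with the other group or nearest to it.

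Among the BH3-only genes, Bcl2l11 had the largest called change of the family. Its protein BIM binds every survival member and can activate BAX and BAK directly. At probe set 1456005_a_at the signals were 1448, 1400, 1360 and 1429 in Dicer mutant 1, 3, 4 and 5, against 827, 771, 867 and 646 in wild type 1, 3, 4 and 5. The 2 groups did not overlap, and the lowest mutant array stood well above the highest wild type array. The means were 1409 ± 38.3 in mutant and 777.8 ± 96.3 in wild type arrays (SD, n = 4 each), and the log2 fold change was 0.87 (SE 0.097, limma adjusted p = 0.0044), a 1.82-fold rise. Dicer mutant 2 had 661 and wild type 2 had 1294, each inside or next to the range of the other group. With these arrays included, the log2 fold change was 0.50 (SE 0.23, limma adjusted p = 1.00).

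The other Bcl2l11 probe sets had the same direction. Signals at 1435449_at were 474, 548, 475 and 471 in Dicer mutant 1, 3, 4 and 5, against 319, 302, 283 and 213 in wild type 1, 3, 4 and 5. Its log2 fold change was 0.83 (SE 0.13, limma adjusted p = 0.0188), and the groups were separate. At 1435448_at the signals were 750, 767, 685 and 701 in the mutant arrays, against 506, 466, 477 and 360 in the wild type arrays. This probe set rose by 0.69 on the log2 scale (SE 0.11, limma adjusted p = 0.0231), again without overlap. The dimmer 1456006_at had 326, 377, 282 and 274 in mutant and 270, 235, 219 and 202 in wild type arrays. Its groups did not overlap either, but its value of 0.44 (SE 0.12) did not pass the test (limma adjusted p = 0.141; 0.0293 with the replicate block). The fifth probe set, 1426334_a_at, was under the filter at a mean signal of 125, with an untested difference of 0.48. Within the numbers, 1456005_a_at differed between the mutant and the wild type array by 0.81, 0.86, 0.65 and 1.15 in numbers 1, 3, 4 and 5, and by -0.97 in number 2. Its call held when any single one of the 8 arrays was left out. Those of 1435449_at and 1435448_at were lost without wild type 3 or 4 or any of the 4 Dicer mutant arrays, at adjusted p of up to 0.0737 and 0.0858.

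Bmf, a BH3-only gene whose protein is held at the cytoskeleton in healthy cells, rose at 1 of its 3 tested probe sets. At 1454880_s_at the signals were 900, 790, 798 and 829 in Dicer mutant 1, 3, 4 and 5, against 630, 545, 622 and 474 in wild type 1, 3, 4 and 5, with no overlap. The log2 fold change was 0.56 (SE 0.11, n = 4 each, limma adjusted p = 0.038), or 1.47-fold, from means of 829.4 ± 49.9 in mutant and 567.4 ± 73.3 in wild type arrays (SD). In the 10 arrays it was 0.36 (SE 0.15). Number 2 again had the opposite sign, with 679 in Dicer mutant 2 and 909 in wild type 2. The call was lost without any 1 of the 8 arrays other than wild type 5, with values of 0.47 to 0.61 and an adjusted p of up to 0.126.

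The other Bmf probe sets did not follow. At 1458325_x_at the signals were 241, 252, 316 and 324 in Dicer mutant 1, 3, 4 and 5, against 252, 263, 313 and 312 in wild type 1, 3, 4 and 5. Here the arrays numbered 4 and 5 stood above those numbered 1 and 3 in both groups, and the fold change was -0.013 on the log2 scale (SE 0.12, limma adjusted p = 0.990). The dim 1422995_at had 155 to 207 in mutant and 128 to 222 in wild type arrays and a value of 0.20 (SE 0.16). The log2 change at 1454880_s_at exceeded that at 1458325_x_at by 0.57 (SE 0.20). In the 10 arrays this difference was 0.38 (SE 0.24). The pair of probe sets was chosen after the values were seen, so no test is given. The suffix _s_at marks probe sets that can match transcripts of several genes, and _x_at those with probes that can bind unrelated transcripts, so neither is free of other genes.

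Pmaip1 varied widely between arrays. It encodes NOXA, a p53-inducible BH3-only protein that binds chiefly MCL1. The signals at 1418203_at, its only probe set, were 1651, 1776, 1762 and 2127 in Dicer mutant 1, 3, 4 and 5, against 1051, 596, 1109 and 2339 in wild type 1, 3, 4 and 5. Wild type 5 was the highest of all, so the groups overlapped, although the other 3 wild type arrays lay below every one of these mutant arrays. The means were 1829 ± 206 in mutant and 1274 ± 746 in wild type arrays (SD, n = 4 each), and the log2 value of 0.69 (SE 0.34) did not pass the test (limma adjusted p = 0.451). Without wild type 5 it was 1.04 and was called (limma adjusted p = 0.0389), and with array weights (adjusted p = 0.0232) or in numbers 1 and 3 alone (adjusted p = 0.0490) it was 1.11 and was called too. These were its only calls, in 1 of 8 runs that left out 1 array and 2 of 12 other settings. The replicate block did not call it (limma adjusted p = 0.152). Dicer mutant 2 had 389, the lowest of the 10 arrays, and wild type 2 had 1386. By number the difference was 0.65, -1.83, 1.58, 0.67 and -0.14 in numbers 1 to 5.

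Bbc3 and Bid did not pass the test at any probe set. Bbc3, whose protein PUMA is the main BH3-only killer downstream of p53, had 229, 227, 196 and 173 in Dicer mutant 1, 3, 4 and 5, against 215, 200, 219 and 195 in wild type 1, 3, 4 and 5. The wild type range lay inside the mutant range, and the log2 value was -0.015 (SE 0.099, limma adjusted p = 0.985). Bid, whose protein links death receptors to mitochondria once caspase 8 cuts it, had 226, 204, 213 and 211 in mutant and 226, 205, 258 and 243 in wild type arrays at 1448560_at. Its log2 values were -0.12 (SE 0.081) there and -0.18 (SE 0.087) at 1417045_at, with adjusted p of 0.637 and 0.447. Dicer mutant 2 had the lowest signal at 1448560_at, 156, and wild type 2 had 199, so number 2 was lower in the mutant there too.

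Bcl2 fell at 2 of its 3 tested probe sets. BCL2 is the survival protein that gave the family its name, and it holds BIM among others. Signals at 1457687_at, its brightest probe set, were 427, 369, 453 and 507 in Dicer mutant 1, 3, 4 and 5, against 676, 614, 681 and 798 in wild type 1, 3, 4 and 5. Every one of these mutant arrays was below every wild type array. The means were 439.1 ± 57.4 in mutant and 692.0 ± 76.9 in wild type arrays (SD, n = 4 each), for a log2 fold change of -0.66 (SE 0.12, limma adjusted p = 0.0313), or 1.58-fold lower. At 1437122_at the signals were 186, 154, 174 and 163 in mutant arrays, against 252, 258, 225 and 258 in wild type arrays, and the fold change was -0.55 (SE 0.080, limma adjusted p = 0.0134). The third, 1422938_at, had 183 to 190 in mutant and 204 to 236 in wild type arrays, also without overlap, but its value of -0.25 (SE 0.063) did not pass (limma adjusted p = 0.106). The 2 probe sets under the filter, at mean signals of 65.4 and 68.5, had overlapping groups.

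Number 2 ran against this too. At 1457687_at Dicer mutant 2 had 675 and wild type 2 had 402, and with all 10 arrays the log2 fold change was -0.38 (SE 0.19, limma adjusted p = 1.00). The differences of the other numbers lay close together, at -0.66, -0.73, -0.59 and -0.65 in numbers 1, 3, 4 and 5. The call at 1457687_at was lost without Dicer mutant 1, 3 or 4 or wild type 1, 3 or 4, and that at 1437122_at without Dicer mutant 3 or 5 or wild type 1 or 3. The adjusted p stayed at or under 0.0900 and 0.0546, and the values at -0.73 to -0.58 and at -0.60 to -0.51.

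**Figure D2:**
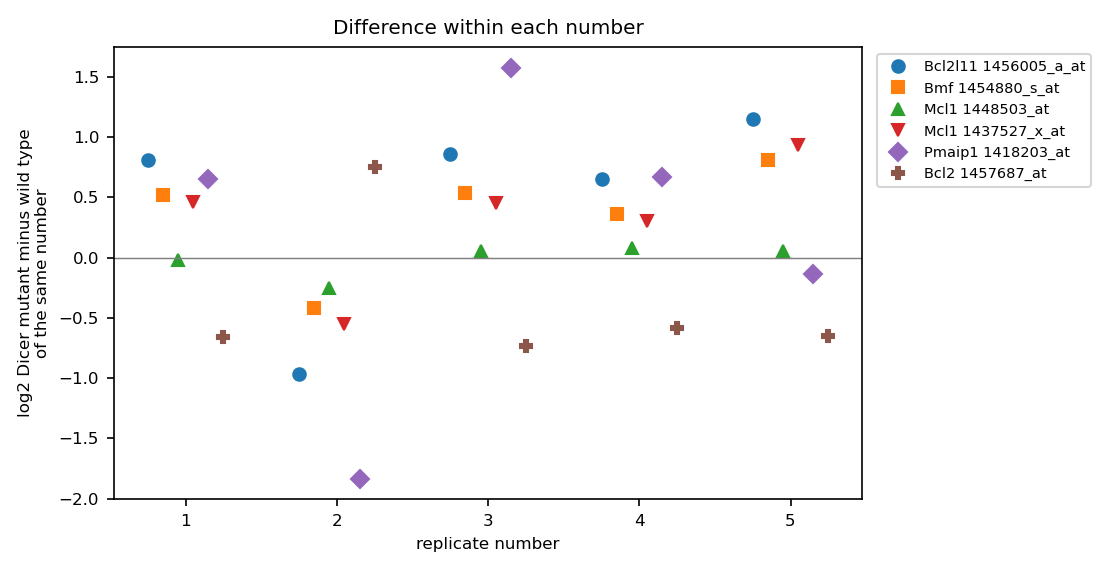
Difference in log2 signal between the Dicer mutant and the wild type array of the same replicate number (y axis) for 6 family probe sets, by replicate number (x axis). In numbers 1, 3, 4 and 5 Bcl2l11 1456005_a_at lies above 0 and Bcl2 1457687_at below it, and in number 2 both change sides, at -0.97 and 0.75.

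Mcl1 divided by probe set. MCL1 is a short-lived survival protein that restrains BAK and binds BIM and NOXA. The brightest probe set, 1448503_at, had 1792, 1865, 1792 and 1717 in Dicer mutant 1, 3, 4 and 5, against 1819, 1796, 1699 and 1650 in wild type 1, 3, 4 and 5. The groups overlapped almost wholly, and the log2 value was 0.042 (SE 0.062, limma adjusted p = 0.897). By contrast 1437527_x_at had 1424, 1388, 1396 and 1434 in mutant arrays, against 1036, 1014, 1133 and 750 in wild type arrays, with no overlap. Its value was 0.54 (SE 0.12), which did not pass in the 8 arrays (limma adjusted p = 0.0649) but did with the replicate number as a block (adjusted p = 0.0373).

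The remaining Mcl1 probe sets fell on either side. 1416880_at, 1456243_x_at and 1456381_x_at had values of 0.47, 0.53 and 0.49, each without overlap between the groups. With the replicate block they too were called (adjusted p of 0.0222, 0.0377 and 0.0435), and in the main fit they were not (0.158, 0.0690 and 0.115). Of the 12 other settings, the block among them, 3 called 1416880_at, 4 called 1456243_x_at, 4 called 1456381_x_at and 5 called 1437527_x_at. Of the 8 runs that left out 1 array, 1 called 1437527_x_at and 1 called 1456243_x_at. 1416881_at, with 0.11 (SE 0.12), was not called in either fit. The log2 change at 1437527_x_at exceeded that at 1448503_at by 0.50 (SE 0.12) in the 8 arrays, and by 0.34 (SE 0.15) in all 10. This pair too was chosen after the values were seen, so no test is given. Which part of the Mcl1 transcript each probe set covers is unstated, and the 3 with the suffix _x_at can bind other transcripts.

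Bcl2l1 and Bak1 stayed within the spread between arrays. Bcl2l1, the gene of BCL-XL, had 427, 434, 399 and 413 in Dicer mutant 1, 3, 4 and 5, against 479, 484, 420 and 453 in wild type 1, 3, 4 and 5 at 1420888_at. Each of these mutant arrays was below the wild type array of its number. Number 2 had the same sign, at -0.089 on the log2 scale. Yet the ranges of the 8 arrays overlapped and their value of -0.13 (SE 0.076) did not pass (limma adjusted p = 0.556). The second tested probe set, 1420887_a_at, stood at -0.012 (SE 0.11). Bak1, the only effector gene measured, had 247, 261, 240 and 233 in mutant and 247, 280, 253 and 269 in wild type arrays at 1418991_at, a value of -0.097 (SE 0.070, limma adjusted p = 0.692).

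**Figure D3:**
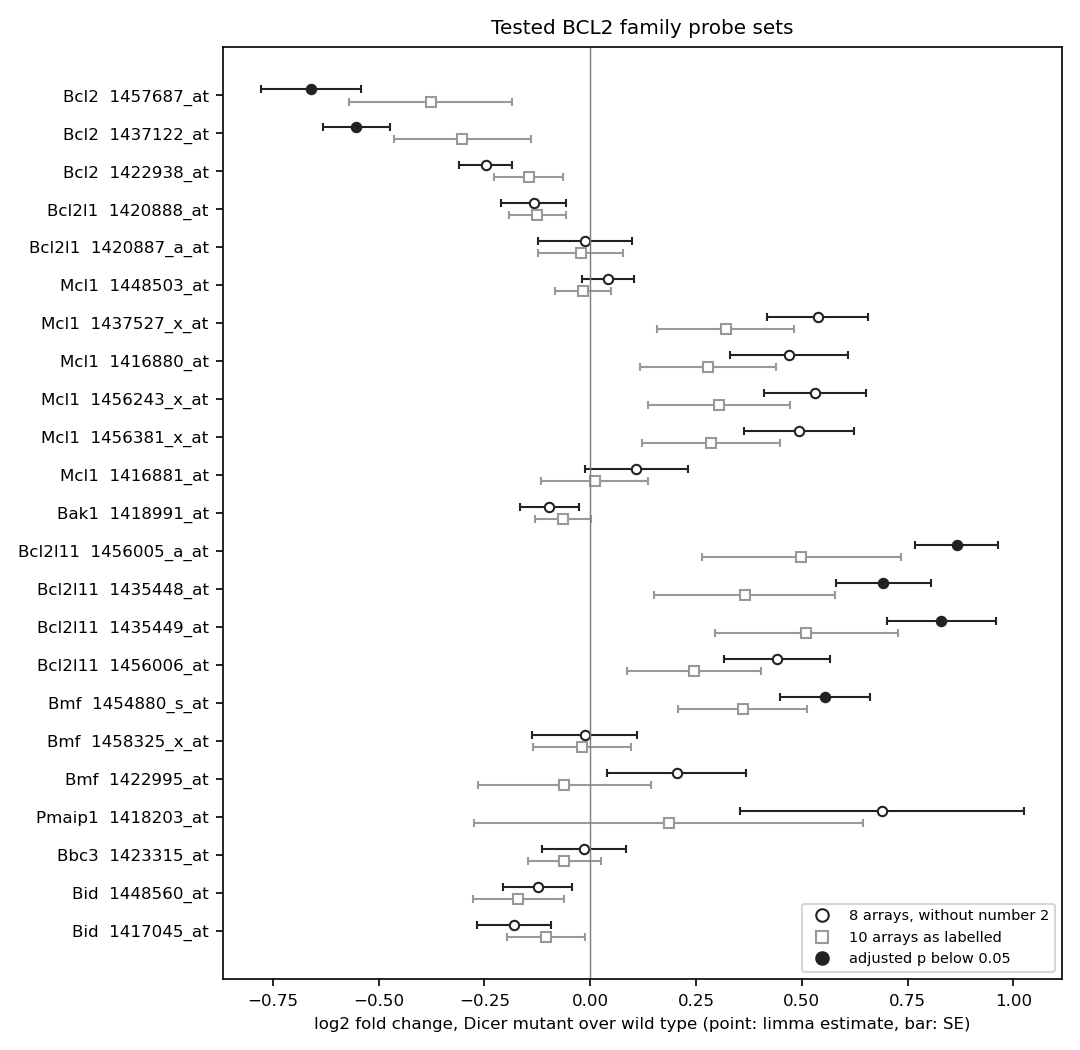
Log2 fold change of Dicer mutant over wild type (x axis, limma estimate with SE) for the 23 tested family probe sets, as circles for the 8 arrays without number 2 and squares for the 10 arrays as labelled. Filled circles mark the 6 probe sets with an adjusted p below 0.05, of Bcl2l11, Bmf and Bcl2, and no square is filled.

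Counting separation alone, 12 of the 23 family probe sets had groups that did not overlap in the 8 arrays: 4 each of Bcl2l11 and Mcl1, 3 of Bcl2 and 1 of Bmf. Of all tested probe sets 9.09% did so. In all 12 the pair numbered 2 had the opposite sign. Outside the family the same held at Dicer1 and at Jun and Gap43, described below (0.51 and 0.45 in number 2). The reversal is therefore not particular to the family, and its share over all probe sets was not counted. Blocking on the replicate number raised the calls to 11 of the 23, 9 higher and 2 lower, where 5.41% of all tested probe sets were called. The 5 added were the 4 of Mcl1 named above and 1456006_at of Bcl2l11. Numbers 1 and 3 and numbers 4 and 5 were also taken separately, and the called members had like mean values in both. This is a description only, since the calls were made on the same 8 arrays. Bcl2l11 1456005_a_at stood at 0.83 in numbers 1 and 3 and 0.90 in numbers 4 and 5, Bmf 1454880_s_at at 0.53 and 0.58, and Bcl2 1457687_at at -0.70 and -0.62. Pmaip1 differed more, with 1.11 in numbers 1 and 3 and 0.27 in numbers 4 and 5. Bbc3 had 0.14 and -0.17. Taken singly, numbers 4 and 5 were at 0.65 and 1.15 for Bcl2l11 1456005_a_at and 0.36 and 0.81 for Bmf 1454880_s_at. For Bcl2 1457687_at they were at -0.59 and -0.65.

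Genes that work with the family were examined as 4 lists, with 1 probe set per gene in the 8 arrays. Of all 11601 genes taken this way, 2.15% were called and 14.7% had an unadjusted p below 0.05. Of the other BCL2 family genes, 9 of 16 were tested, and limma called 0, with 0 at an unadjusted p below 0.05 and a median log2 fold change of -0.042. The smallest p-values were those of Bcl2l2, the gene of the survival protein BCL-W (-0.12, SE 0.079, limma adjusted p = 0.658), and Bcl2l13 (-0.075, limma adjusted p = 0.864). Downstream of the mitochondria, 16 of 18 apoptosome and caspase genes were tested and limma called 0, with 2 at an unadjusted p below 0.05, a share near that of all genes (median 0.023). Diablo, whose protein leaves the mitochondria to block caspase inhibitors, had -0.29 (SE 0.10, limma adjusted p = 0.238), and Dffa, the gene of the inhibitor of the apoptotic DNase, had -0.16 (limma adjusted p = 0.323). Of 10 death receptor genes 6 were tested, and limma called 0, also with 0 at an unadjusted p below 0.05 (median -0.086), with Traf2 at -0.12 and Fadd at -0.11. With the replicate block these 3 lists had 0 calls as well.

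Among upstream regulators of the family 23 of 25 genes were tested and 1 passed, near the share of all genes, with 2 at an unadjusted p below 0.05 and a list median of -0.0052. That gene was Jun, whose AP-1 protein can induce Bcl2l11 in neurons. Its signals were 312, 317, 276 and 279 in Dicer mutant 1, 3, 4 and 5, against 436, 368, 417 and 499 in wild type 1, 3, 4 and 5. The groups did not overlap, and Jun fell by 0.53 on the log2 scale (SE 0.10, limma adjusted p = 0.0410). With the replicate block 2 of the 23 were called, Jun again and Bag1, near the 6.59% of all genes called with it. Bag1, the gene of a chaperone partner that binds BCL2, was lower (-0.35, limma adjusted p = 0.0373, against 0.161 without the block).

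**Figure D4:**
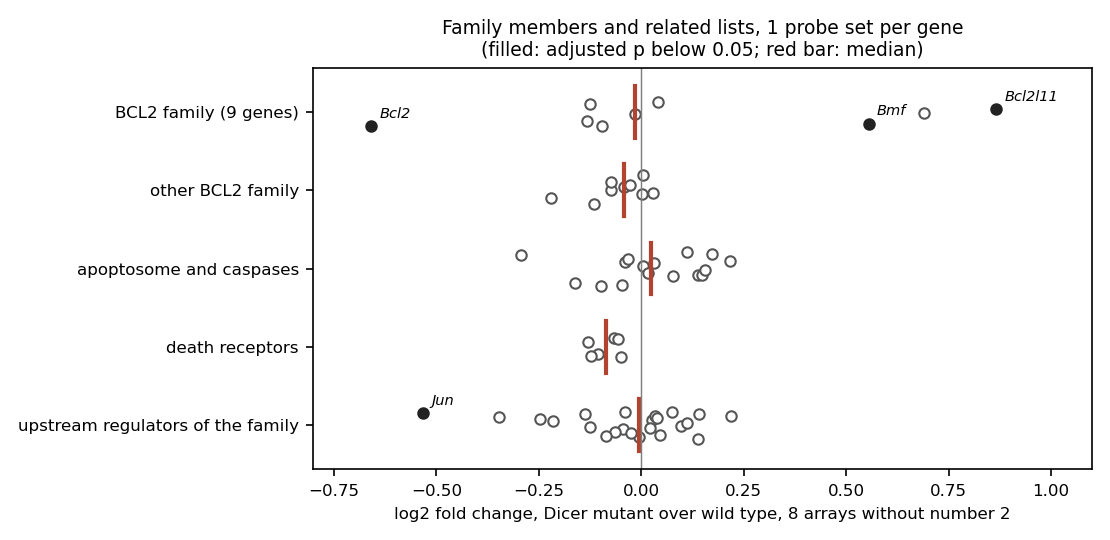
Log2 fold change of Dicer mutant over wild type in the 8 arrays without number 2 (x axis) for the 9 family genes and 4 related lists, 1 point per gene at its brightest tested probe set, filled where the adjusted p was below 0.05, with red bars at list medians. The called points are Bcl2, Bmf and Bcl2l11 in the family and Jun among the upstream regulators.

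Markers of other cells in the limb bud were read in the same way. Of 10 macrophage and white blood cell markers 6 were tested and limma called 0, with 3 at an unadjusted p below 0.05, against 14.7% of all genes (median 0.18). The signal summed over all 10 listed markers, tested or not, was 2036 to 2368 in Dicer mutant and 1946 to 2114 in wild type arrays of the 8. In number 2 the order was reversed, at 1889 in Dicer mutant 2 and 2633 in wild type 2. With the replicate block 2 of the 6 were called, where 6.59% of genes were. These were Ctss (0.43) and Tyrobp (0.49), both higher (limma adjusted p = 0.0197 and 0.0164). Cx3cr1 and Fcer1g had 0.19 and 0.16, and Csf1r and Laptm5 had -0.0059 and -0.017. Of 8 nerve and Schwann cell markers 6 were on the array and 3 were tested, and Gap43 was called as lower (-0.34, limma adjusted p = 0.0466). Erbb3 had -0.33 (limma adjusted p = 0.355), Sox10 had -0.0095, the list median was -0.33, and 2 of the 3 had an unadjusted p below 0.05. The signal summed over the 6 on the array was 988 to 1096 in mutant and 1090 to 1294 in wild type arrays of the 8. It was 1371 in Dicer mutant 2 and 1219 in wild type 2. None of the tested surface ectoderm (10), red blood cell (6), endothelial (7) or muscle (6) markers passed, and 1 in all had an unadjusted p below 0.05. The medians of these lists were 0.065, 0.058, -0.013 and -0.020. With the block Krt14 alone of them was called (-0.45, limma adjusted p = 0.0174), where 6.59% of genes were. Other ectoderm markers lay on either side of 0 without a call, such as Fgf8 (0.18) and Trp63 (-0.14). No marker was at 0 in any array. The part of these cells in the differences of Bcl2, Bcl2l11 and Bmf was not tested.

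The genes most like Bcl2l11 and Bcl2 over the 10 arrays were found by Pearson correlation of log2 signal among 11601 genes, each at its brightest tested probe set. The arrays share the group structure and the reversed pair, so these values describe likeness only. For Bcl2l11 they were Bend3 (r = 0.990), which encodes a DNA-binding repressor, Ankrd13c (0.985), and Zwint (0.977), a kinetochore gene. Bend3 averaged 689.2 ± 16.8 in mutant and 360.0 ± 33.3 in wild type arrays of the 8 (SD, n = 4 each). For Bcl2 they were Hddc2 (r = 0.984), the fucosyltransferase gene Fut8 (0.982) and the selenoprotein gene Selenoh (0.979). Hddc2 averaged 523.4 ± 46.4 in mutant and 769.8 ± 64.7 in wild type arrays. In each of these 6 genes Dicer mutant 2 and wild type 2 lay with or nearest to the other group, as they did for Bcl2l11 and Bcl2.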

How the data were processed

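Biotin-labelled cRNA from total RNA was hybridised to Affymetrix arrays, per the labels' protocols. The authors deposited 1 linear intensity per probe set and array, already on a common scale. Trimmed means ran from 276.3, in Dicer mutant 2, to 289.4. The submitters' processing notes name GCOS 1.3. The sources used here state no summarization model and give no detection calls, so how far dim probe sets stand above background is unknown. Precision is limited by the number of arrays.

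Values under 1 were set to 1 before log2. Without the 64 controls, the 22519 probe sets whose mean over the arrays reached the median were tested with limma 3.58.1 in R 4.3.3 (intensity trend, Benjamini-Hochberg over all tested probe sets, threshold 0.05), after a check on simulated data. Genes were named from the platform annotation. The members, the lists and the 8-array comparison were chosen with earlier results of these data known. The naming rule took every family probe set, Dicer1, and up to 4 called members of each list or the 2 with the smallest p. It also took any called marker and the 3 genes most like Bcl2l11 and Bcl2. Some list genes and markers were named outside this rule with their values known, such as Bag1, Tbx5, Csf1r, Sox10 and Fgf8.

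The meaning of the replicate numbers is unstated. Across probe sets, the deviations from the group mean of the mutant and wild type array of a number correlated at 0.55, 0.55, 0.71 and 0.32 for numbers 1, 3, 4 and 5 in the 8 arrays, and at -0.18 for number 2 in the 10 arrays. The highest correlation with an array of another number was 0.43, 0.54, 0.21 and 0.52 for numbers 1, 3, 4 and 5, so number 5 was more like another number and number 3 about as like. The pairing comes from this check only, and the fit without a block was kept as the main one.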

Additional observations from a re-analysis of the deposited data

Results flagged for a closer look

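Signals far from the other 4 arrays of their group were found in 8 of 60 groups of 5 looked at (gap to the nearest array over the range above 0.71, which chance gives in about 1 group of 20). Groups from probe sets of 1 gene are not independent, so the count cannot be set against that rate. The share over all probe sets was not taken. In 7 the array was Dicer mutant 2. There Bcl2l11 had 661 at 1456005_a_at, against 1360 to 1448 in the other mutant arrays, and 423 at 1435448_at, against 685 to 767. Mcl1 had 946 at 1437527_x_at and 845 at 1456243_x_at, where the others had 1388 to 1434 and 1251 to 1303. Pmaip1 had 389, where the others had 1651 to 2127. Bcl2 had 225 at 1422938_at, against 183 to 190, and 121 at 1443837_x_at, under the filter, against 54 to 69. In the eighth the array was wild type 2, with 225 at Bcl2l11 1426334_a_at, under the filter, against 90 to 126 in the remaining wild type arrays.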

How the results depend on the processing

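With all 10 arrays every alternative called 0 probe sets, of the family and of all genes. In the 8 arrays the 6 family calls became 11 with array weights, 11 with the replicate block, 12 with numbers 1 to 3 against 4 and 5 as a block, 11 in numbers 1 and 3 alone and 0 in numbers 4 and 5 alone. All calls, 378 before, became 2612, 1219, 1538, 812 and 0. Leaving out 1 array at a time gave 1 to 9 family calls and 93 to 745 in all. The lowest family count came without Dicer mutant 3 or wild type 3, the highest without wild type 5. Per gene, 2 of 9 were called from the mean of all tested probe sets of a gene, against 3 from the brightest. The replicate block ended none of the 6 calls. The 6 called probe sets kept their sign under every alternative run. The sign turned only for probe sets that were not called. In the 8 arrays these were Bmf 1458325_x_at (0.0001 with quantile normalization, 0.19 with array weights, 0.035 in numbers 4 and 5, -0.082 to 0.060 leaving out 1 array), Mcl1 1416881_at (-0.0034) and 1448503_at (-0.011) with array weights, Bbc3 (0.14 in numbers 1 and 3, -0.070 to 0.066 leaving out 1 array) and Bcl2l1 1420887_a_at (-0.083 to 0.055). In the 10 arrays they were Mcl1 1448503_at (0.010 with quantile normalization, -0.045 to 0.020 leaving out 1 array), Mcl1 1416881_at (-0.045 with array weights, -0.093 to 0.10), Bmf 1458325_x_at (0.0026 with quantile normalization, 0.15 with array weights, -0.083 to 0.031), Bmf 1422995_at (-0.18 to 0.077), Bcl2l1 1420887_a_at (-0.086 to 0.030) and Pmaip1 (-0.060 to 0.63). The cause of these turns was not tested. Signals near the filter are limited by the unknown background.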

Other observations

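Bnip3, a mitochondrial BH3-like gene induced by low oxygen and named after its values were seen, had 625 to 1147 in the 5 Dicer mutant arrays, against 572 to 767 in wild type 1 to 4 and 4333 in wild type 5. Pmaip1 had its highest signal, 2339, in wild type 5 as well.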
